A study of Mus musculus with 2 samples.

Results

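Glycolysis and hypoxia genes were followed as a set of 32 genes, taken by symbol from the 32285 genes of the deposited count tables. All 32 were found, each under 1 identifier. The set holds 2 genes of glucose transport, 11 of the upper steps of glycolysis, 6 of the lower steps, 5 of lactate and pyruvate handling, and 8 that regulate or follow the hypoxia-inducible factor (HIF). The rule names genes and sets no threshold on their values, though the list was drawn up with earlier results of these data known.

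Glycolysis splits glucose into pyruvate and yields ATP without oxygen. Lactate dehydrogenase can then turn pyruvate into lactate, which leaves the cell through monocarboxylate transporters. When oxygen is short, prolyl hydroxylases no longer mark HIF-1α for destruction, and with its partner ARNT it raises many glycolytic genes through sites with the core letters ACGTG. In the optic nerve, oligodendrocytes hand lactate to axons, and T cells and macrophages are known to raise glycolysis when they are activated.

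The cells came from optic nerves of Nf1-OPG mice, a model of the optic glioma of neurofibromatosis. Both groups share the genotype: every cell carries 1 Nf1 allele disrupted by a neomycin cassette, and neuroglial progenitors lose the floxed allele through Cre driven by GFAP. One group was given an antibody against PDCD1 (PD-1) and the other an antibody against TIGIT, receptors that restrain T cells. Each group is 1 droplet library, sequenced from the 5′ end, of live cells from the pooled nerves of 10 mice at 12 weeks of age, so that neither differences between mice nor an untreated level are measured here. The labels give the optic nerve as the tissue, while their protocol also mentions meningeal dura and does not say whether dura entered these libraries.

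The anti-PDCD1 library held 13997 barcodes and 85031565 unique molecular identifiers (UMIs), and the anti-TIGIT library 7915 barcodes and 40733655 UMIs. After filtering, 13311 and 7494 cells remained, with medians of 4453 and 4123.5 UMIs per cell. Cell types were assigned by gates on marker UMIs, and a cell had to pass exactly 1 gate. Cells that passed none made up 27.6% and 26.0%, and cells that passed 2 or more 7.85% and 6.22%. 15 types had at least 50 cells in a library and are described by level, and the 9 that reached 100 cells on both sides were compared between the antibodies. Markers outside the gates were high where the gate name calls for them, with 1 exception. Cells of the gate for astrocytes carried little Gfap (49 and 6.61 CPM) and Slc1a3 (63.4 and 46.2 CPM) beside Igfbp4 at 628 and 624 CPM, against their label, and are called Gjb6/Gja1-gate cells here. The T cells left over by the Cd8a, Cd8b1, Cd4, Foxp3 and Trdc split are called other T cells. 163 barcode sequences occurred in both libraries. Both libraries held cells with Xist and cells with Y-linked UMIs, while the labels give no sex, and values within these cells are given where they turn a result. The mix differed between the libraries. Cells with Xist alone and Y-linked UMIs alone numbered 432 and 337 in CD8 T cells given anti-PDCD1, against 68 and 205 given anti-TIGIT. Other T cells had 186 and 185 against 26 and 130, and plasma cells 96 and 100 against 4 and 94. Microglia went the other way, at 346 and 423 against 134 and 114. Where the mix differs, sex and antibody cannot be told apart in the full counts. Gene positions below are those of GENCODE on GRCm38.

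Levels are given as CPM, the UMIs of a gene per 1000000 UMIs of the cell type in that library. The 5′ method counts 1 end per transcript, so levels of different genes are not scaled by length. Values joined by "and" are in the order anti-PDCD1, anti-TIGIT. Parentheses hold exact 95% intervals, which cover counting error only, and with 1 library per group no test was run and no difference has a replicate check.

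The promoters of 6 members whose levels the results turn on are shown first, from 250 bases before to 50 after the RefSeq gene start (GRCm38.p6), 5′ to 3′ on the gene's strand. Capitals mark the letters ACGTG or, for the other strand, CACGT. Where CACGTG stands, both readings overlap and count as 2 matches. Pgk1, Mif, Pkm and Ddit4 are among the members called in myeloid cells, and Ldha and Ldhb divide the cell types.
Pgk1, chrX:106186850-106187149, plus strand: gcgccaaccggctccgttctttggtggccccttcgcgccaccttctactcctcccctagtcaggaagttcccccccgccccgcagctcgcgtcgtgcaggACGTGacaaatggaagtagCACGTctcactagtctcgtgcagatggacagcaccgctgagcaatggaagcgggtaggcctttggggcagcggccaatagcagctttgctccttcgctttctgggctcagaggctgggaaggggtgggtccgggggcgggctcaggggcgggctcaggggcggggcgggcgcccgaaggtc
Mif, chr10:75860228-75860527, minus strand: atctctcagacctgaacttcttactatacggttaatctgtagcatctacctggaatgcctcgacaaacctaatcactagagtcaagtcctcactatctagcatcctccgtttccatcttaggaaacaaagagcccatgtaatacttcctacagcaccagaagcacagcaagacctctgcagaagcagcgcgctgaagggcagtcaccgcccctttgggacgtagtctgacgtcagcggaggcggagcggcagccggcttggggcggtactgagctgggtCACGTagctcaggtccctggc
Pkm, chr9:59656326-59656625, plus strand: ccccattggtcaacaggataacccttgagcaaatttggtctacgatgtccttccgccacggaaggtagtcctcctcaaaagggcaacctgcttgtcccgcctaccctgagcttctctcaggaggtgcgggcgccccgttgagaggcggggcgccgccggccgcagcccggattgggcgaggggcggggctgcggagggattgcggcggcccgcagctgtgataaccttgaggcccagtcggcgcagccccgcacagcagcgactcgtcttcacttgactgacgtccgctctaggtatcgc
Ddit4, chr10:59951721-59952020, minus strand: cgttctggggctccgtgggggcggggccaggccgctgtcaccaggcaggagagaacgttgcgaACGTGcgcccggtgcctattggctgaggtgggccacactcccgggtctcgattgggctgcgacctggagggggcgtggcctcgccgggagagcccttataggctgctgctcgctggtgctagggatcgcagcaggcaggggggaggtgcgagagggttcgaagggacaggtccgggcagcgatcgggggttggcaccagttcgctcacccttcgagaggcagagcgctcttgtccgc
Ldha, chr7:46845554-46845853, plus strand: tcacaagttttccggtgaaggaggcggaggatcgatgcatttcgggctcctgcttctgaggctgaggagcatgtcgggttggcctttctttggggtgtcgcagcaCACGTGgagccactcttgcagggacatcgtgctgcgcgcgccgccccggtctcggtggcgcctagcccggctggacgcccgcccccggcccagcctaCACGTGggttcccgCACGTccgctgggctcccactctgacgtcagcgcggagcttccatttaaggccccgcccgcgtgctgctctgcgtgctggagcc
Ldhb, chr6:142507908-142508207, minus strand: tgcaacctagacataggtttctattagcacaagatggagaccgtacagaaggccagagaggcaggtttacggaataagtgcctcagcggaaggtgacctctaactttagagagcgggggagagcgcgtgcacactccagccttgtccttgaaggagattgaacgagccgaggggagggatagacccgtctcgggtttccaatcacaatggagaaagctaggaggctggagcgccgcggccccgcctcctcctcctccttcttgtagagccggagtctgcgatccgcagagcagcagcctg

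The window held 5 matches in Ldha, 2 in Pgk1, 1 each in Mif and Ddit4, and 0 in Pkm and Ldhb. RefSeq promoters were matched for 31 of the 32 members, all but Slc2a3. At the first listed start, 19 of the 31 (61.3%) held the motif, against 5315 of 27025 genes (19.7%) and 3627 of 17492 protein-coding genes (20.7%). Counting every listed start, 22 of 31 members held it, Pkm among them through another start. Several members are known as HIF targets, so the choice of members is not independent of this motif, and a match is a description and no evidence of binding.

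The members together took the largest share of UMIs in regulatory T cells, the Foxp3-carrying T cells that restrain immune responses. Their shares there were 0.772% (0.757 to 0.787) and 0.734% (0.705 to 0.764). Plasma cells, which devote much of their RNA to immunoglobulin, had the smallest, at 0.110% (0.108 to 0.113) and 0.110% (0.106 to 0.113). Oligodendrocyte precursor cells (OPCs), which renew the myelin-forming cells, stood high at 0.651% (0.641 to 0.661) and 0.594% (0.569 to 0.621). Microglia, the resident macrophages of nervous tissue, had 0.497% (0.492 to 0.501) and 0.394% (0.385 to 0.404), intervals that do not overlap.

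**Figure D1:**
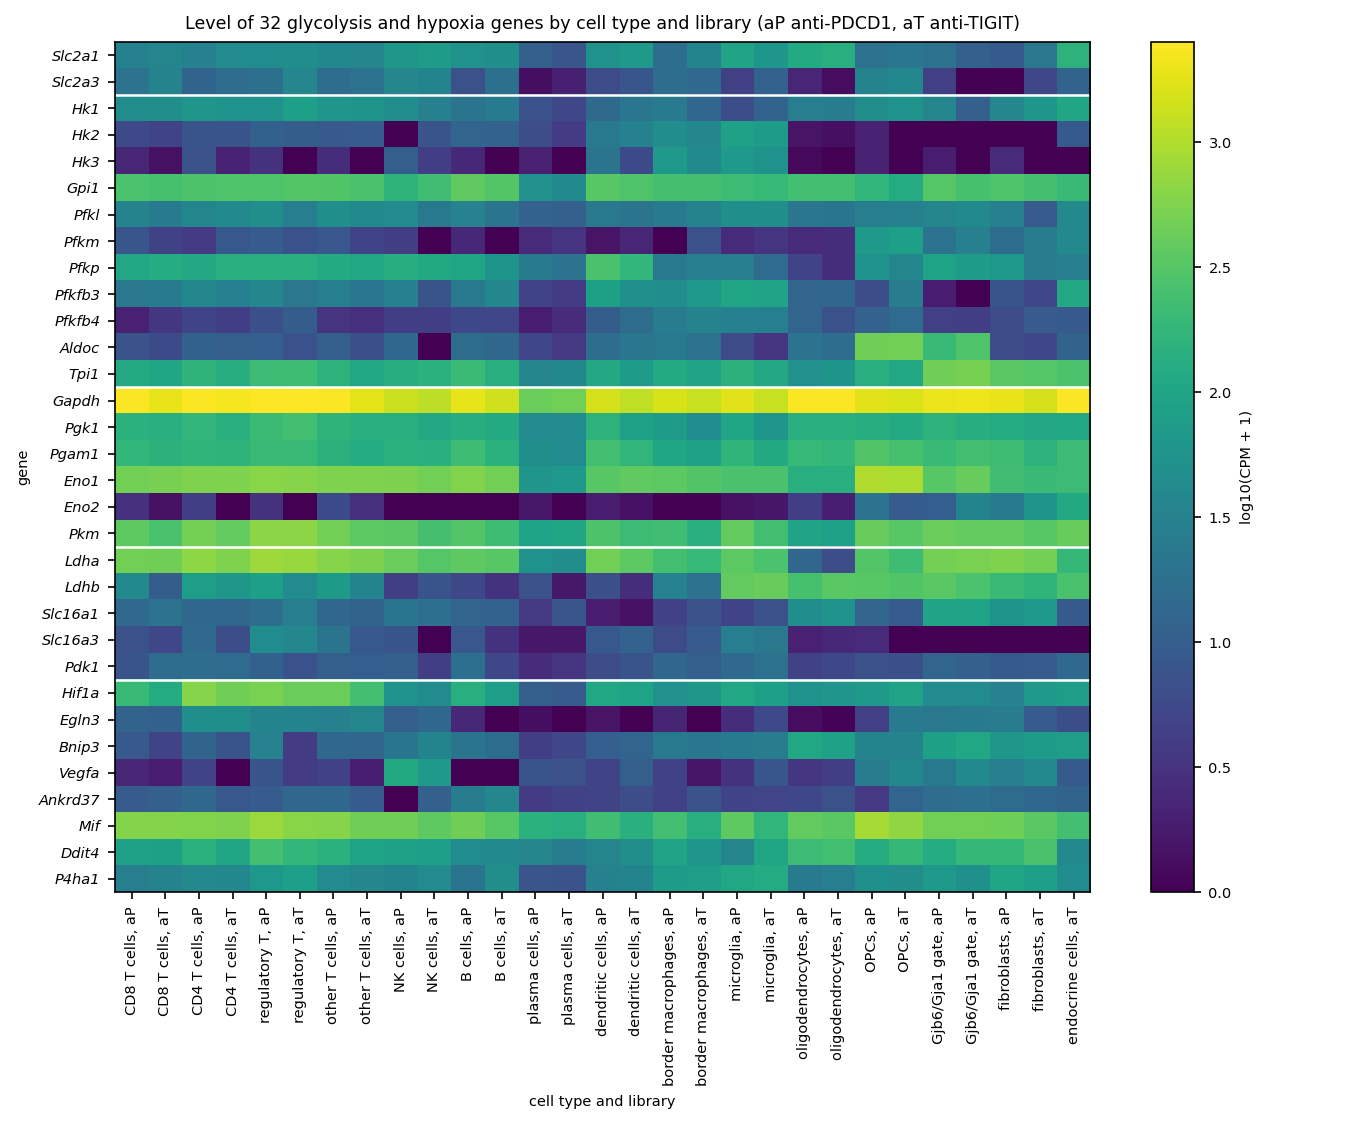
Level of the 32 members, as log10(CPM + 1), in each gated cell type and library (columns, aP anti-PDCD1 and aT anti-TIGIT), with white lines between the groups of glucose transport, upper glycolysis, lower glycolysis, lactate and pyruvate, and HIF genes. Gapdh is the brightest row in nearly every column, and the columns of plasma cells are the darkest for most lower glycolysis genes.

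Of the glucose transporters, Slc2a1 (GLUT1, the basal transporter of glia and vessels) was highest in oligodendrocytes, at 119.6 CPM (114 to 125) and 138 CPM (132 to 144), beside 53 gated endocrine cells of the anti-TIGIT library at 159 CPM (121 to 205). Microglia followed in the anti-PDCD1 library at 95.7 CPM (89.6 to 102). Slc2a3 (GLUT3, a transporter of high affinity) was low in most types, with 36.2 and 32.9 CPM in NK cells and 32.5 and 38.1 CPM in OPCs, whose intervals overlap. OPCs and oligodendrocytes thus divided the pair differently: Slc2a1 made up 35.3% and 35% of the UMIs of both genes in OPCs and 98.9% and 99.8% in oligodendrocytes.

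The first step of glycolysis, the phosphorylation of glucose, was coded by different hexokinases in different cells. Hk1, the housekeeping hexokinase, made up 97.5% (95.7 to 98.7) and 98.5% (96.6 to 99.5) of hexokinase UMIs in oligodendrocytes and 88.7% and 91.5% in CD8 T cells, but 3.49% (2.63 to 4.52) and 7.95% (4.85 to 12.1) in microglia. Hk2, an inducible form, was highest in microglia at 88.4 and 75.2 CPM, followed by border macrophages, the macrophages of meninges and vessels, at 44.8 and 36.6 CPM. Hk3, a form of myeloid cells, was high in the same types, at 66.4 and 54.1 CPM in microglia and 66.03 and 40.9 CPM in border macrophages. Their Hk3 intervals overlapped within each library, and those of Hk2 did not.

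The next regulated step, phosphofructokinase, divided the types along other lines. Pfkp, the platelet form, was highest in dendritic cells, which present antigen to T cells, at 263 CPM (247 to 280.2) and 179.7 CPM (163 to 198), and made up 91.95% and 89.8% of the family there. Pfkl, the liver form, led in oligodendrocytes with 79.1% and 84.7% of the family and in microglia with 62.8% and 74.1%. Pfkm, the muscle form, was highest in OPCs, at 69.2 and 81.98 CPM, and under 10 CPM in every T cell, B cell, plasma cell, dendritic cell, macrophage and oligodendrocyte group. Of the genes of fructose 2,6-bisphosphate, which stimulates phosphofructokinase, Pfkfb3 stood at 102 and 96.96 CPM in microglia and 84.2 and 50.7 CPM in dendritic cells, and Pfkfb4 at 29.9 and 28.8 CPM in microglia and 26.2 and 31.7 CPM in border macrophages.

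Aldoc, the brain form of aldolase, marked OPCs at 461 CPM (435 to 487) and 477 CPM (407 to 556), while oligodendrocytes held 18.9 and 15.6 CPM. Gjb6/Gja1-gate cells had 193 and 287 CPM, but these came from few cells. Only 9.25% and 6.35% of them had an Aldoc UMI, against 100% and 98.4% with Gapdh. Tpi1, triose phosphate isomerase, was highest in Gjb6/Gja1-gate cells at 458 and 509 CPM. Gpi1, which turns glucose 6-phosphate into fructose 6-phosphate, ran from 51.1 and 40.01 CPM in plasma cells to 371 and 313 CPM in B cells.

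Among the lower steps, Gapdh, which makes the first NADH, reached 2521 and 2502 CPM in regulatory T cells and 2378 and 2393 CPM in oligodendrocytes, against 434 and 468 CPM in plasma cells. Regulatory T cells also led for Pgk1, the first step that returns ATP, at 210.3 and 236 CPM, and for Pkm, pyruvate kinase, at 654 and 642 CPM. OPCs led for Eno1, the common enolase, at 989.8 CPM (952 to 1028) and 969 CPM (868 to 1079), and for Pgam1, phosphoglycerate mutase, at 301 and 258 CPM. Eno2, the neuronal enolase, was near 0 in immune cells and highest in the endocrine cells, at 115 CPM (82.9 to 156). Eno1 and Gapdh have near-identical copies elsewhere in the genome, so their levels are uncertain where reads could be split.

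Oligodendrocytes had little of several lower enzymes other than Gapdh. Pkm stood there at 95.5 and 87.3 CPM against 409 and 331 CPM in OPCs, and Eno1 at 135 and 141 CPM against 989.8 and 969 CPM. Pgk1 was an exception, at 143 and 144 CPM in oligodendrocytes and 131 and 120.04 CPM in OPCs.

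The lactate dehydrogenase genes differed widely between the cell types. Ldha, whose subunit is known to favour lactate formation, was highest in regulatory T cells at 804 and 755 CPM and lowest in oligodendrocytes at 12.3 and 5.43 CPM. Ldhb, whose subunit is known to favour the return of lactate to pyruvate, stood at 378 and 404 CPM in microglia, 329 and 302 CPM in OPCs and 259 and 338 CPM in oligodendrocytes. In dendritic cells, Ldhb held 5.83 and 1.78 CPM and in NK cells 3.29 and 6.59 CPM. Of all lactate dehydrogenase UMIs, Ldhb made up 95.5% (94.8 to 96.03) and 98.4% (98.01 to 98.8) in oligodendrocytes, 51.9% and 59.4% in microglia, 11.6% and 8.76% in border macrophages and 1.21% and 0.503% in dendritic cells. Microglia and border macrophages, both macrophages of nervous tissue, thus differed in this ratio in both libraries beyond counting error.

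**Figure D2:**
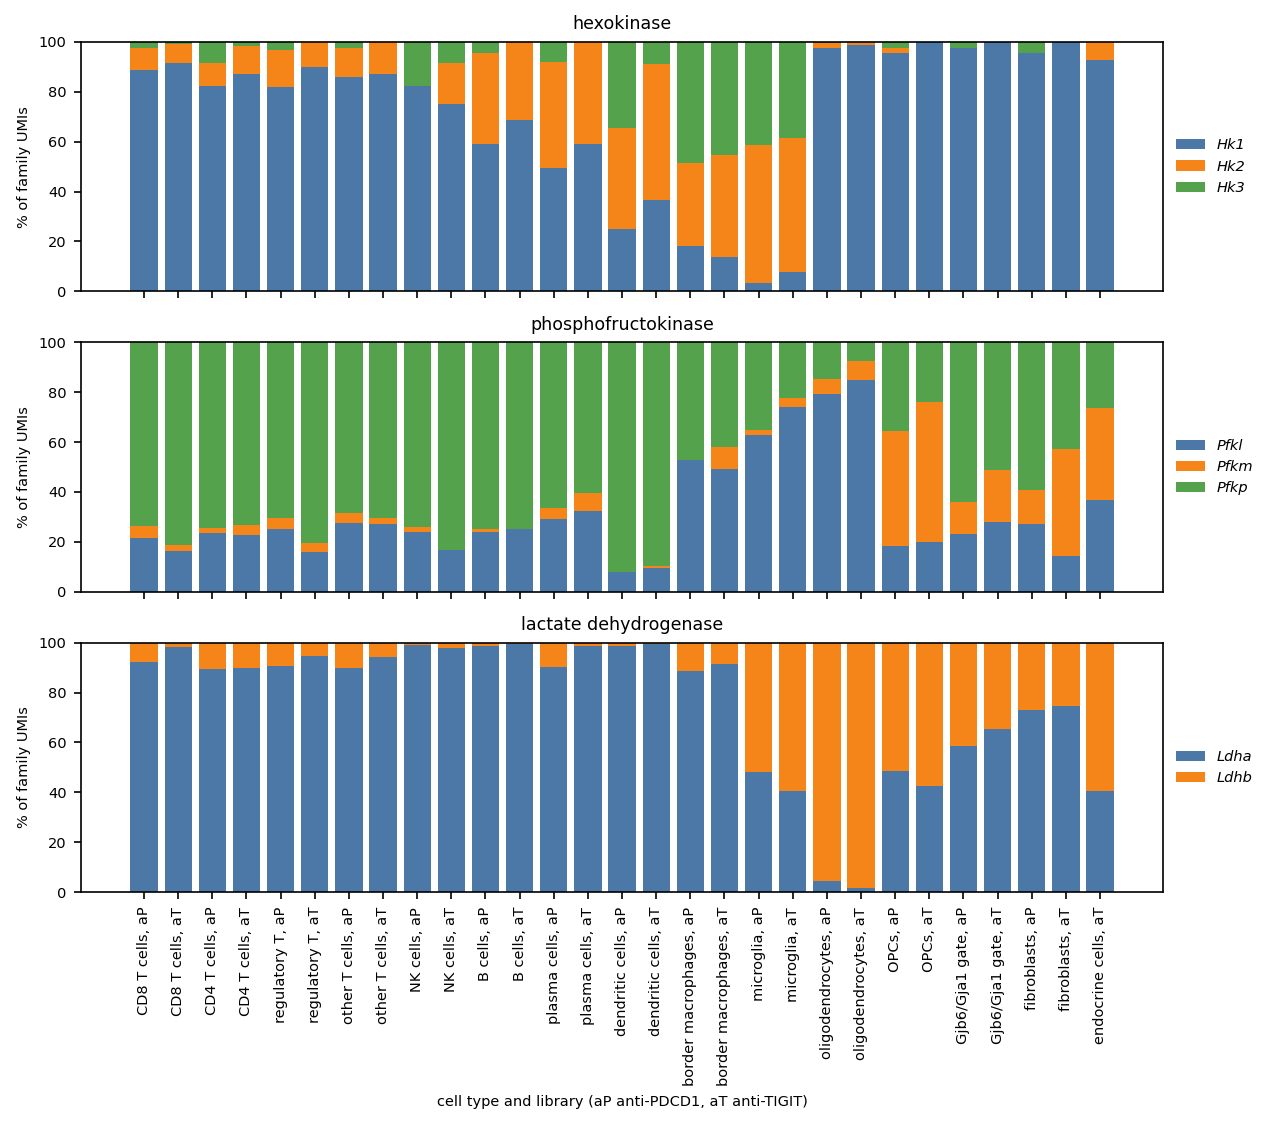
Share of each family's UMIs (y axis, percent) held by each hexokinase, phosphofructokinase and lactate dehydrogenase gene, in each cell type and library (aP anti-PDCD1, aT anti-TIGIT). Ldhb fills 95.5% and 98.4% of the lactate dehydrogenase bar of oligodendrocytes, and Hk1 3.49% and 7.95% of the hexokinase bar of microglia.

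The lactate transporters also took separate places. Slc16a1 (MCT1, the transporter by which oligodendrocytes are known to release lactate) was highest in Gjb6/Gja1-gate cells at 94.6 and 89.2 CPM, with 57.5 and 68.7 CPM in fibroblasts and 46.1 and 54.3 CPM in oligodendrocytes. Slc16a3 (MCT4, which exports lactate from highly glycolytic cells) was highest in regulatory T cells at 44.7 and 36.8 CPM and in microglia at 27.3 and 22.3 CPM, and had 0 UMIs in fibroblasts and in Gjb6/Gja1-gate cells. Pdk1, which shuts pyruvate out of mitochondria by inhibiting pyruvate dehydrogenase, stayed under 20 CPM in every type.

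Of the HIF genes, Hif1a itself was highest in CD4 T cells, at 598 CPM (563 to 635) and 462 CPM (419 to 508), and in regulatory T cells at 519 and 424 CPM. Egln3, a prolyl hydroxylase that is also a HIF target, was highest in the same cells, at 48.8 and 48.2 CPM in CD4 T cells and 0.294 and 0.0755 CPM in oligodendrocytes. Bnip3 and Vegfa had their highest levels elsewhere. Bnip3, which drives removal of mitochondria, was at 108 and 87.4 CPM in oligodendrocytes, 83.6 and 109 CPM in Gjb6/Gja1-gate cells and 11.5 and 6.57 CPM in CD4 T cells. Vegfa, the vessel growth factor, was highest in NK cells, at 115 CPM (80.1 to 160.01) and 69.2 CPM (42.8 to 106), and held 3.84 and 0 CPM in CD4 T cells.

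Mif, a cytokine gene, was highest in OPCs at 883 and 685 CPM. Ddit4, an inhibitor of mTORC1 that stress hormones and hypoxia are known to raise, was high in oligodendrocytes at 212 and 234 CPM, in regulatory T cells at 240.3 and 178 CPM and in fibroblasts at 184 and 266 CPM. P4ha1, a collagen prolyl hydroxylase, was at 110.1 and 123 CPM in microglia and 100.2 and 81.5 CPM in fibroblasts. Ankrd37, a HIF target of little known function, was highest in B cells at 25.5 and 36.2 CPM.

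Between the antibodies, the members were compared in 9 cell types, 288 pairs of gene and type, of which 196 had at least 50 UMIs over both libraries. The log2 ratio is that of (CPM + 5) in anti-PDCD1 over (CPM + 5) in anti-TIGIT, and a member is called higher or lower past 1.5-fold. The added 5 CPM pull the ratios of low genes towards 0, and the intervals belong to the plain ratio. 25 pairs were higher in the anti-PDCD1 library and 6 were lower. No share of all genes pooled over the types is given, so these counts are to be read beside the shares per type below. In every one of the 9 types Pgam1, Ldha and Mif had a ratio above 0, many of them small, and Pkm did in 8. How many of all genes did the same is not given.

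Microglia and border macrophages had the most called members. In microglia 5 of 26 members were higher and 3 lower, where 4.19% and 12.5% of all genes at the same minimum were. The median ratio of the members was 0.23 against -0.19 over all genes, and relative to that shift 9 members were higher and 2 lower: Gapdh, Pgam1, Tpi1 and Aldoc joined, and Hk1, at -0.42, did not pass. The shares of all genes past 1.5-fold after the same shift are not given, so 9 and 2 have no background beside them. The microglia also differed in depth, with medians of 6766 and 3830 UMIs. In border macrophages 6 of 22 were higher and 1 lower, where 2.75% and 7.89% of all genes were, with medians of 0.23 and -0.08. Dendritic cells had 4 of 23 higher and 0 lower, against 5.79% and 7.85% of all genes, with medians of 0.19 and -0.00. In these myeloid types the members' share of higher calls exceeded that of all genes. It also did in B cells, other T cells and oligodendrocytes, and slightly in CD8 T cells, as given below. No test of the excess was made.

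Lymphocytes differed among themselves. Other T cells had 4 of 24 members higher and 0 lower, against 8.22% and 3.31% of all genes, with medians of 0.20 and 0.05. B cells had 2 of 12 higher and 0 lower, against 8.0% and 10.4%, with medians of 0.44 and -0.01. CD8 T cells had 2 of 27 higher and 2 lower, against 5.79% and 3.60%, near the background, with medians of 0.05 and -0.01. No member was called in CD4 T cells, with 19 at the minimum and 6.92% and 3.19% of all genes higher and lower, nor in plasma cells, with 16 at the minimum and 4.70% and 2.74%. In oligodendrocytes 2 of 27 were higher and 0 lower, against 3.45% and 0.491%, and the medians of -0.04 and -0.01 were both near 0.

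**Figure D3:**
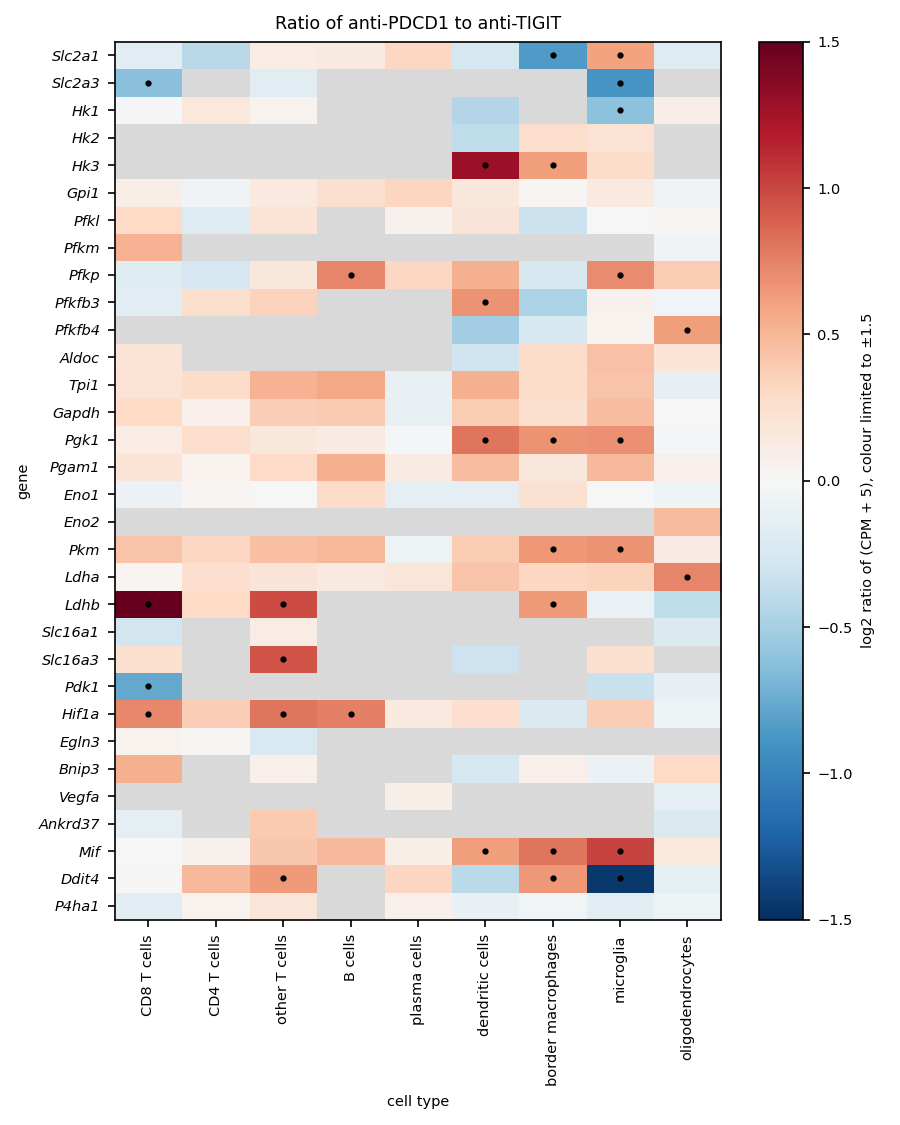
Log2 ratio of (CPM + 5), anti-PDCD1 over anti-TIGIT, for each member (rows) in the 9 compared cell types (columns). Red is higher and blue lower in the anti-PDCD1 library, grey marks pairs under 50 UMIs, and dots mark the pairs past 1.5-fold, most of them red and in the columns of microglia, border macrophages, dendritic cells and other T cells.

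Of the glucose transporters, Slc2a1 went opposite ways in the macrophage types. It was at 95.7 CPM (89.6 to 102) and 61.1 CPM (49.9 to 74.05) in microglia, a log2 ratio of 0.61 (0.35 to 0.95). In border macrophages it was at 16.2 CPM (8.62 to 27.7) and 33.4 CPM (25.6 to 42.8), a log2 ratio of -0.86 (-2.03 to -0.16) from 13 and 62 UMIs. Each of these intervals lies on 1 side of 0, the ratios passed 1.5-fold in 6 of 13 and 7 of 10 alternatives, and the difference between the types was not tested. Slc2a3 was lower in the anti-PDCD1 library in CD8 T cells, at 18.8 and 31.8 CPM with a log2 ratio of -0.63 (-1.18 to -0.32), and in microglia, at 3.42 and 10.6 CPM with -0.89 (-2.50 to -0.71). The Slc2a3 ratio passed 1.5-fold in 8 of 13 alternatives in CD8 T cells, up to -0.06, and in 9 of 13 in microglia. The microglial value rests on 33 and 18 UMIs, and it was 0.04 among cells with Y-linked UMIs.

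In the upper steps, Hk3 was higher in dendritic cells and border macrophages. In dendritic cells it stood at 19.1 CPM (14.9 to 24.02) and 4.89 CPM (2.44 to 8.76), a log2 ratio of 1.28 (1.04 to 3.03), and it stayed past 1.5-fold under all 10 alternatives. In border macrophages it stood at 66.03 and 40.9 CPM, a ratio of 0.63 (0.16 to 1.22), which turned to -0.32 among Xist-positive cells. It passed 1.5-fold in 4 of 10 alternatives there. Of the 6 macrophage genes C1qa, C1qb, C1qc, Apoe, Lyz2 and Cd74, Apoe was higher in dendritic cells (186 and 52.9 CPM, log2 ratio 1.72), Lyz2 was lower (405 and 921 CPM, log2 ratio -1.18), and the others were not called. Their summed level, most of it Cd74, which dendritic cells make themselves, was 35410 and 40275 CPM. Their part in the Hk3 difference was not tested.

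Pfkp was higher in B cells, at 99.2 and 57.5 CPM with a log2 ratio of 0.74 (0.12 to 1.49), and in microglia, at 27.2 and 14.7 CPM with 0.71 (0.30 to 1.54). The microglial ratio passed 1.5-fold in 7 of 13 alternatives and turned in 2, to -0.04 among cells with Y-linked UMIs and -0.08 in class II-rich cells. Pfkfb3 was higher in dendritic cells, at 84.2 and 50.7 CPM with 0.68 (0.42 to 1.05), and Pfkfb4 in oligodendrocytes, at 12.05 and 6.04 CPM with 0.63 (0.62 to 1.39). Hk1 was lower in microglia, at 5.59 and 11.2 CPM with -0.61 (-1.77 to -0.16) from 54 and 19 UMIs. Pfkfb3 passed 1.5-fold in 8 of 10 alternatives, Pfkfb4 in 7 of 11, down to 0.30, and Hk1 in 7 of 13, up to -0.20. Hk2, Gpi1, Pfkl, Pfkm, Aldoc and Tpi1 were called in no type on the CPM scale.

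In the lower steps, Pgk1 and Pkm were the called members. Pgk1 (ENSMUSG00000062070, chrX:106187100-106203699, plus strand), with 2 motif matches in the promoter shown, was at 99.3 CPM (93.1 to 106) and 59.9 CPM (48.9 to 72.8) in microglia, 72.3 CPM (54.9 to 93.4) and 43.6 CPM (34.6 to 54.2) in border macrophages, and 158 CPM (145 to 171) and 88.5 CPM (76.7 to 102) in dendritic cells. Its log2 ratios there were 0.68 (0.43 to 1.04), 0.67 (0.22 to 1.23) and 0.80 (0.60 to 1.07). In oligodendrocytes, with far more UMIs, it was at 143 and 144 CPM, a ratio of -0.01 (-0.10 to 0.07). The intervals of Pgk1 lie above 0 in the myeloid types, and that of oligodendrocytes holds 0. Pgk1 passed 1.5-fold in 10 of 13 alternatives in microglia, down to 0.05, in 5 of 10 in border macrophages, down to 0.13, and in 10 of 10 in dendritic cells.

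Pkm was at 380.3 CPM (368 to 393) and 236 CPM (213 to 259.9) in microglia and 230.5 CPM (198 to 266) and 145 CPM (128 to 163) in border macrophages. The log2 ratios were 0.68 (0.54 to 0.84) and 0.65 (0.39 to 0.95), the latter at -0.09 among Xist-positive cells. They passed 1.5-fold in 9 of 13 and 8 of 10 alternatives. Smaller ratios in the same direction were seen in B cells at 0.50 (0.16 to 0.86), other T cells at 0.45 (0.29 to 0.63) and CD8 T cells at 0.43 (0.31 to 0.57), with the lower bound above 0 in each. Plasma cells were the exception at -0.08 (-0.29 to 0.12).

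Gapdh, Pgam1, Eno1 and Eno2 were called in no type on that scale. Gapdh, the member with most UMIs, nevertheless had intervals above 0 in microglia at 0.46 (0.40 to 0.53), B cells at 0.39 (0.25 to 0.53), dendritic cells at 0.38 (0.31 to 0.45) and other T cells at 0.37 (0.30 to 0.45), and in oligodendrocytes a ratio of -0.01 (-0.03 to 0.01). In CD8 T cells Gapdh was at 2388 CPM (2351 to 2425) and 1941 CPM (1884 to 1999). Border macrophages had 1548.5 CPM (1464 to 1637) and 1314 CPM (1262.5 to 1367). The level intervals do not overlap in either of these types. Eno1 did not follow Gapdh, with 0.00 (-0.14 to 0.15) in microglia and -0.01 (-0.14 to 0.13) in other T cells.

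**Figure D4:**
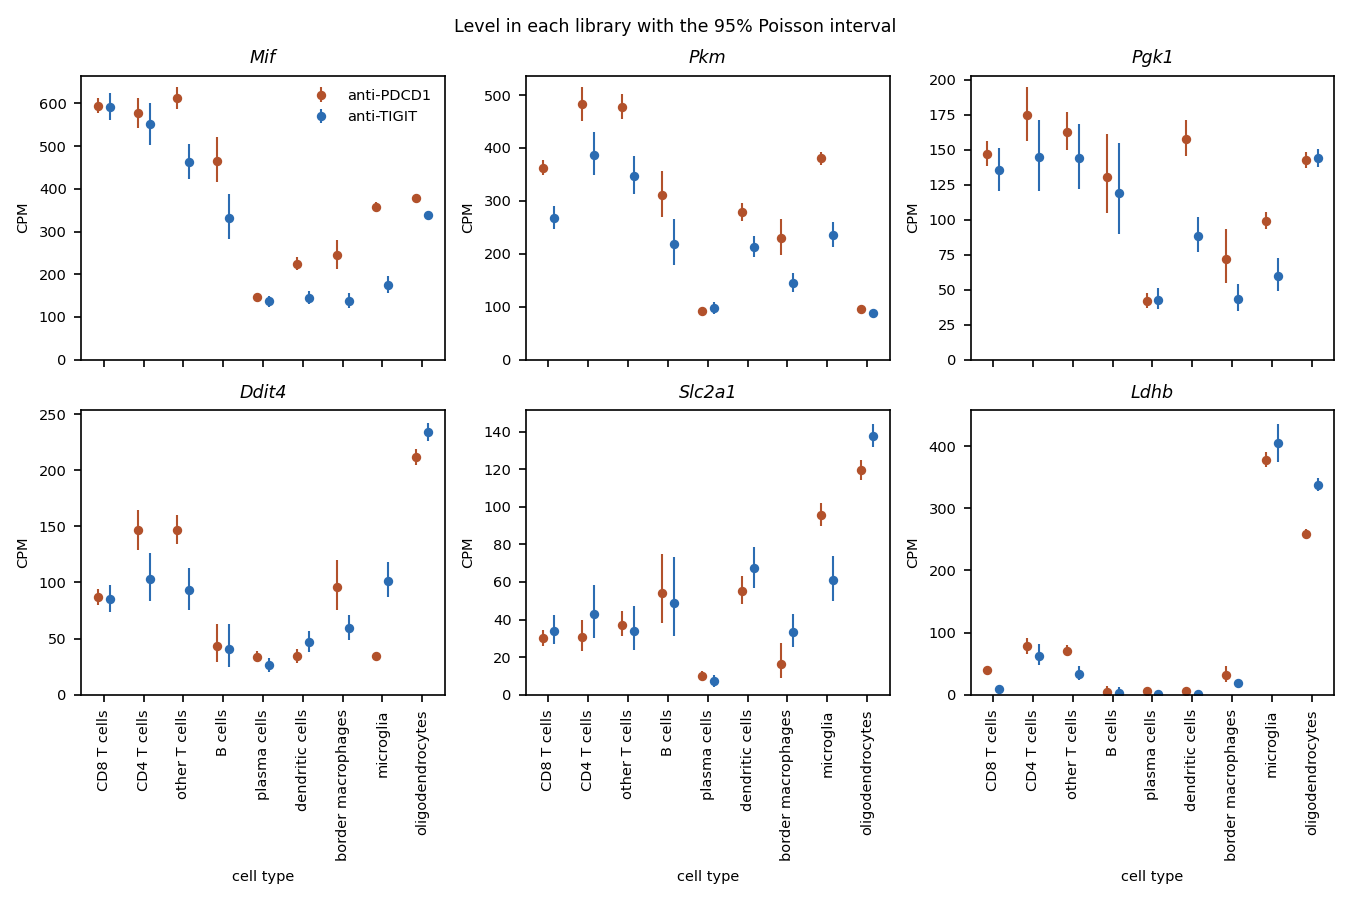
Level of 6 members (y axis, CPM, from 0) in the 9 compared cell types, with exact 95% Poisson intervals, in the anti-PDCD1 (red-brown) and anti-TIGIT (blue) library. Mif, Pkm and Pgk1 are higher in the anti-PDCD1 library in microglia and border macrophages, Ddit4 is lower in microglia and higher in border macrophages of that library, and Ldhb is high in microglia and oligodendrocytes of both.

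Lactate and pyruvate genes differed in T cells. Ldhb was at 39.9 CPM (35.3 to 44.97) and 9.14 CPM (5.66 to 13.97) in CD8 T cells, a log2 ratio of 1.67 (1.49 to 2.84) from 272 and 21 UMIs, and at 70.4 and 33.2 CPM in other T cells, a ratio of 0.98 (0.57 to 1.64). Both stayed past 1.5-fold under every alternative run, 13 in CD8 T cells and 10 in other T cells. In CD4 T cells it was at 77.8 and 62.4 CPM, with an interval that holds 0 at 0.30 (-0.13 to 0.79). Slc16a3 was also higher in other T cells, at 19.2 and 7.58 CPM with 0.95 (0.28 to 2.61) from 65 and 8 UMIs. Pdk1 was lower in CD8 T cells, at 6.61 and 14.8 CPM with -0.77 (-1.84 to -0.48), but at 0.59 (-0.54 to 4.55) in those with a Pdcd1 UMI, from 30 and 2 UMIs.

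Macrophage genes moved in the same direction as Ldhb in CD8 T cells. All 6 of the list (C1qa, C1qb, C1qc, Apoe, Lyz2 and Cd74) were higher, with a summed level of 1621 and 206 CPM, and 3 of 7 myelin genes were, with 3154 and 1935 CPM. Of all genes in CD8 T cells 5.79% were higher. In other T cells 5 of 6 macrophage genes were higher, with 2816 and 1828 CPM, against 8.22% of all genes. In NK cells of the same libraries, C1qa was at 138 and 85.7 CPM and Ldhb at 3.29 and 6.59 CPM, from 1 and 2 UMIs, while in CD8 T cells C1qa was at 111 and 11.8 CPM. So few Ldhb UMIs in NK cells cannot bear on the Ldhb difference in CD8 T cells. The part of macrophage and myelin genes in the differences in T cells was not tested.

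With each cell thinned to 1000 UMIs, Ldhb was seen in 66 of 1510 cells (4.37%, 3.40 to 5.53) among CD8 T cells given anti-PDCD1 and 4 of 600 cells (0.667%, 0.182 to 1.70) among those given anti-TIGIT. Without thinning the shares were 14.3% and 3.48%, at median depths of 3815 and 3199 UMIs. Dendritic cells, with the lowest Ldhb share of lactate dehydrogenase, gave 4 of 396 cells (1.01%, 0.276 to 2.57) and 0 of 322 cells (0%, 0 to 1.14), at median depths of 9084 and 6658 UMIs.

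In border macrophages Ldhb was at 31.1 and 18.3 CPM, past 1.5-fold but with an interval that holds 0, at 0.63 (-0.04 to 1.56), and it was -0.40 among Xist-positive cells. In oligodendrocytes Ldhb was not called, at -0.38 (-0.44 to -0.32), while Ldha was, at 12.3 CPM (10.7 to 14.1) and 5.43 CPM (4.25 to 6.84) with a log2 ratio of 0.73 (0.79 to 1.59). The plain ratio of such low levels is larger than the ratio of (CPM + 5). Macrophage genes moved with it, 5 of 6 higher with a summed 1255 and 301 CPM, as did 7 of 12 stress genes of dissociation, and haemoglobin genes went the other way, 4 of 4 lower with 71.9 and 1007 CPM. Of all genes in oligodendrocytes 3.45% were higher and 0.491% lower. Among Xist-positive oligodendrocytes the Ldha ratio was -0.17. The part of macrophage, stress and haemoglobin genes in the Ldha difference was not tested.

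Of the HIF genes, Mif (ENSMUSG00000033307, chr10:75859353-75860240, minus strand) was higher in all 3 myeloid types. It was at 358 CPM (346 to 369.9) and 175 CPM (155 to 196) in microglia, 244 CPM (211 to 281) and 138 CPM (122 to 156) in border macrophages, and 225 CPM (210.3 to 241) and 145 CPM (129 to 161) in dendritic cells. The log2 ratios were 1.01 (0.86 to 1.21), 0.80 (0.55 to 1.09) and 0.62 (0.45 to 0.83). Mif was not called in B cells, at 466 CPM (415 to 521) and 332 CPM (282 to 388). Nor was it in other T cells, at 613 CPM (586 to 639) and 462 CPM (422 to 505). The intervals do not overlap in either, while they do in CD4 T cells and plasma cells. In CD8 T cells, where Mif was higher than in any myeloid type, the interval held 0, at 595 and 592 CPM with 0.01 (-0.08 to 0.10). The ratio passed 1.5-fold under all 13 alternatives in microglia, from 0.64 to 1.25, in 8 of 10 in border macrophages, down to 0.42, and in 6 of 10 in dendritic cells, down to 0.41.

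Ddit4 (ENSMUSG00000020108, chr10:59949669-59951834, minus strand) had the lowest ratio of all 196 pairs. In microglia it was at 34.2 CPM (30.6 to 38.1) and 102 CPM (87.1 to 118), a log2 ratio of -1.44 (-1.84 to -1.30). In border macrophages it was at 95.9 CPM (75.7 to 119.9) and 59.2 CPM (48.6 to 71.3), a ratio of 0.65 (0.26 to 1.13), and in other T cells at 147 and 92.9 CPM, a ratio of 0.63 (0.35 to 0.99). The border macrophage value was unstable, at -0.01 with cells thinned to equal depth and up to 2.54 under the alternatives. Among other T cells it was past 1.5-fold in 6 of 10 alternatives.

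Genes of dissociation and stress moved with Ddit4 in microglia: 6 of the 12 on the list were lower in the anti-PDCD1 library and 0 higher, with a summed level of 19043 and 25957 CPM. Of all genes in microglia 12.5% were lower and 4.19% higher. In dendritic cells 5 of 12 stress genes were lower, against 7.85% of all genes, with 7972 and 11640 CPM, beside a Ddit4 ratio of -0.40 (-0.83 to -0.07). In border macrophages 2 of 12 were lower, against 7.89% of all genes, with 21697 and 21855 CPM, and haemoglobin genes stood at 51.1 and 2640 CPM. The part of these genes in the Ddit4 difference was not tested.

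Hif1a was called higher in 3 types, all lymphocytes, and its ratio was above 0 in 7 of the 9 types. It was at 203 CPM (192 to 214) and 121 CPM (107 to 136) in CD8 T cells, 432 CPM (410.4 to 455) and 245 CPM (216 to 277) in other T cells, and 137 CPM (110.1 to 168) and 78.7 CPM (55.4 to 109) in B cells. The log2 ratios were 0.72 (0.56 to 0.94), 0.80 (0.63 to 1.01) and 0.76 (0.23 to 1.39), past 1.5-fold in 10 of 13, 9 of 10 and 9 of 9 alternatives. CD4 T cells, with the highest level, had 0.37 (0.21 to 0.54), and border macrophages -0.22 (-0.79 to 0.28). Microglia were not called, at 109.5 CPM (103 to 116) and 83.4 CPM (70.3 to 98.4), intervals that do not overlap. Those of dendritic cells overlapped, at 110.2 CPM (99.9 to 121) and 92.1 CPM (80 to 105.5). Egln3, Bnip3, Vegfa, Ankrd37 and P4ha1 were called in no type, and Egln3 in CD4 T cells, its main site, was at 0.02 (-0.52 to 0.57).

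Microglia differed between the libraries in their MHC class II genes, so the cells were split where class II genes made up 1% of a cell's UMIs, a limit chosen after the data were seen. The anti-PDCD1 library held 988 cells at or over it and 311 under it, the anti-TIGIT library 105 and 318. In that order, 65 and 20 cells lay within 0.2 percentage points of the limit. Some members differed in level between the class II groups within a library and others did not. Ddit4 was at 23.3 and 35.1 CPM in cells at or over the limit and 87.1 and 128 CPM in cells under it, while Eno1 was at 267 and 243 CPM and 266 and 274 CPM.

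Within the groups the Ddit4 ratio was -0.50 (-1.31 to 0.22) and -0.53 (-0.89 to -0.22), against -1.44 in all microglia, so that it kept its direction and neither group passed 1.5-fold. Mif was higher in both, at 379.8 and 217 CPM with 0.80 (0.53 to 1.11) over the limit and 249.8 and 158 CPM with 0.65 (0.41 to 0.92) under it. Pkm had 0.52 (0.28 to 0.79) and 0.42 (0.20 to 0.64), both with lower bounds above 0. Pgk1 and Slc2a1 were higher past 1.5-fold in the class II-rich cells alone, with 0.88 (0.39 to 1.55) and 0.98 (0.45 to 1.72) there against 0.05 (-0.39 to 0.50) and 0.31 (-0.08 to 0.74), and the difference between the groups was not tested. Pfkp was at -0.08 (-0.82 to 0.74) over the limit, an interval that holds both 0 and the ratio of all microglia, and had under 50 UMIs in the other group.

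Ldhb behaved differently again. Over all microglia it was not called, at -0.09, but it was at 361 and 221 CPM in class II-rich cells, a log2 ratio of 0.70 (0.43 to 1.004), and 461 and 477 CPM in the others, a ratio of -0.05 (-0.21 to 0.11).

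CD8 T cells were split by a UMI of Pdcd1, the target of one antibody, also after the data were seen. The anti-PDCD1 library held 1143 cells with such a UMI and 380 without, the anti-TIGIT library 191 and 412. Ldhb kept its difference on both sides, at 42.9 and 12.5 CPM with 1.45 (0.95 to 2.75) and 29.4 and 6.73 CPM with 1.55 (1.07 to 3.35). Hif1a was at 225 and 154 CPM with 0.53 (0.30 to 0.80) in cells with a Pdcd1 UMI and 125 and 97.3 CPM with 0.35 (0.03 to 0.70) in the others, past 1.5-fold in neither. The lower Slc2a3 was seen in cells with a Pdcd1 UMI, at -0.80 (-1.61 to -0.32), and not in the others, at -0.06 (-0.69 to 0.56). Ddit4, at 0.02 over all CD8 T cells, was lower in those without a Pdcd1 UMI, at 48.1 and 78.6 CPM with -0.65 (-1.16 to -0.26).

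**Figure D5:**
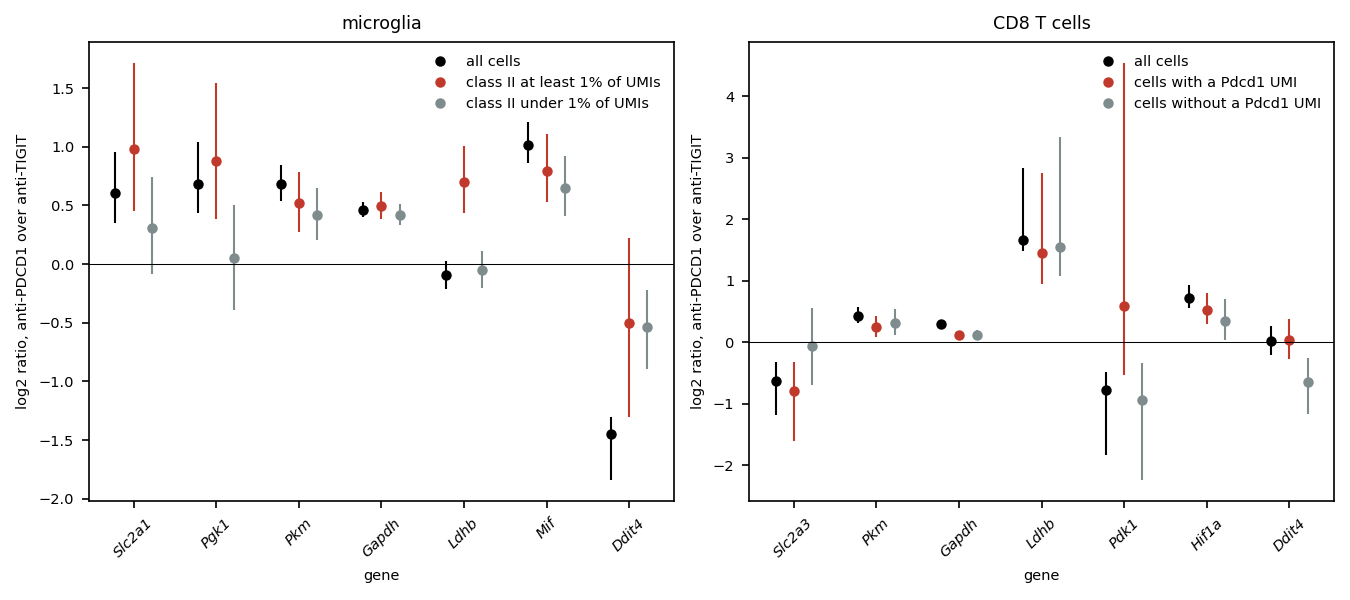
Log2 ratio of (CPM + 5), anti-PDCD1 over anti-TIGIT, of 7 members in microglia (left, split by the class II share of UMIs) and of 7 members in CD8 T cells (right, split by a Pdcd1 UMI). Points are ratios and lines the exact 95% intervals of the plain ratio, which need not be centred on the point. Ddit4 in microglia is nearer 0 in both groups than in all cells, and Ldhb in CD8 T cells is above 0 in both.

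Few of the other genes of the pathway were called, and their counts can be read against the shares of all genes given above. Of 22 other genes of glycolysis and pyruvate, 15 reached the minimum in microglia, with 1 higher and 2 lower beside 4.19% and 12.5% of all genes. Tigar, a phosphatase that lowers fructose 2,6-bisphosphate, was higher there (8.08 and 3.53 CPM, log2 ratio 0.62). Eno3, the muscle enolase, and Slc16a7, the lactate transporter MCT2, were lower there (6.52 and 18.2 CPM, log2 ratio -1.01, and 14.5 and 30.6 CPM, log2 ratio -0.87). In border macrophages, beside 2.75% of all genes, 1 of 6 was higher, Mpc1, a subunit of the mitochondrial pyruvate carrier (116 and 72.1 CPM, log2 ratio 0.65). In B cells, beside 10.4%, 1 of 4 was lower, Pdha1 of pyruvate dehydrogenase (34.6 and 78.7 CPM, log2 ratio -1.08). In the other 6 types 7 to 15 of these genes reached the minimum, and 0 were called in either direction.

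Of 8 other genes of the HIF pathway, at most 1 was called in any type. Egln1, the main oxygen-sensing prolyl hydroxylase, was lower in microglia, 1 of 5 (22.9 and 42.3 CPM, log2 ratio -0.76). Arnt2, a partner of HIF, was higher in CD8 T cells, 1 of 6 (15.3 and 5.66 CPM, log2 ratio 0.93), and Egln2, another prolyl hydroxylase, in plasma cells, 1 of 3 (32.05 and 19.3 CPM, log2 ratio 0.61).

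Of 19 other hypoxia targets found in the tables, 13 reached the minimum in microglia and none was called there. In dendritic cells 2 of 11 were higher, Ndrg1 (49.3 and 29.8 CPM, log2 ratio 0.64) and Higd1a (95.4 and 60.9 CPM, log2 ratio 0.61), and Bhlhe40, a repressor, was lower (245 and 378 CPM, log2 ratio -0.61). In CD8 T cells 2 of 13 were higher. These were P4ha2, a collagen prolyl hydroxylase (13.2 and 0.435 CPM, log2 ratio 1.74, from 90 and 1 UMIs), and Hmox1, haem oxygenase (6.75 and 1.74 CPM, log2 ratio 0.80, from 46 and 4 UMIs). Hmox1 stood at 166 and 222 CPM in microglia, and macrophage genes were also higher in CD8 T cells. Their part in the Hmox1 difference was not tested. In B cells 1 of 5 was higher, Higd1a. CD4 T cells had 1 of 11 higher, Ndrg1, whose interval holds 0 at 0.67 (-0.04 to 1.81), and 2 lower, Anxa1 and Cited2. Oligodendrocytes had 1 of 11 higher, Hmox1, other T cells 2 of 12 higher and 2 lower, and plasma cells 0 of 7. In microglia 0 of 13 and in border macrophages 0 of 11 of these targets were called higher on the CPM scale, beside 4.19% and 2.75% of all genes. With so few genes, these counts cannot be told apart from such shares.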

How the data were processed

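For each gene and barcode the deposited tables hold UMI counts. Cell Ranger 8.0.0 made the anti-PDCD1 table and 8.0.1 the anti-TIGIT table, per the file headers, so version and antibody cannot be told apart. The genome build was mm10, per the submitters' processing notes, which also list Seurat 5.0.3 and R 4.1.1, neither used here.

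Barcodes under 200 genes or over 10% mitochondrial UMIs were left out, and 540 and 156 doublets were removed with Scrublet in scanpy 1.11.5, at an expected rate of 0.8% per 1000 cells. A gate needed 3 to 10 UMIs over at least 2 of its marker genes. Counts were summed per type and library, with Poisson, conditional binomial and Clopper-Pearson intervals. The calculation was tested on Poisson counts simulated from the CD8 T cell profile. These hold no variation between cells, mice or libraries, so the test checks the arithmetic of counting error only. Members, lists and gates were chosen with earlier results of these data known. Every member is accounted for, up to 6 called members per type and direction are given with values, and other genes were named only where listed and past 1.5-fold. Aldoa, one of the other glycolysis genes and no member, has 2 identifiers, which were summed. Tools were Python 3.11.15, numpy 2.4.6, scipy 1.17.1, pandas 2.3.3 and matplotlib 3.10.9.

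Alternatives changed doublet removal, cell limits, gates, thinning, weighting, scaling, pseudocount, UMI minimum, fold and sex of the cells. The class II and Pdcd1 splits were added after the data were seen. One result among the other hypoxia targets is not reported here.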

Additional observations from a re-analysis of the deposited data

Results flagged for a closer look

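Slc2a1 and Ddit4 were called in opposite directions in different cell types under the same contrast. The log2 ratio of Slc2a1 was -0.86 in border macrophages and 0.61 in microglia. That of Ddit4 was 0.65 in border macrophages and 0.63 in other T cells, and -1.44 in microglia. With 1 library per group the difference between the types was not tested for either gene. The border macrophage values rest on 13 and 62 UMIs of Slc2a1 and 77 and 110 UMIs of Ddit4, and under the alternatives they ranged from -1.29 to -0.19 and from -0.01 to 2.54.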

How the results depend on the processing

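No paired analysis was possible because each group has 1 library and no value comes from a test. For the same reason no replicate could be left out. The median ratio of the members per type moved by less than its counting bounds in 114 of 114 alternatives. These bounds are medians of the members' own interval bounds and no interval of the median. They are as wide as the interval of a single gene, from -0.15 to 0.22 in oligodendrocytes, so the check is a loose one. The number of members past 1.5-fold stayed within 1.5 times in 85 and moved in 38. With cells thinned to 1000 UMIs it was 5 in B cells, 3 in CD4 T cells, 7 in CD8 T cells, 5 in microglia, 7 in other T cells and 9 in plasma cells, where the full counts gave 0. At 2-fold it was 0 in B cells, border macrophages, oligodendrocytes and other T cells, 1 in CD8 T cells and dendritic cells and 2 in microglia. With a pseudocount of 20 CPM it was 2 in CD8 T cells, border macrophages, dendritic cells and other T cells, 3 in microglia and 0 in oligodendrocytes, and with 1 CPM it was 4 in oligodendrocytes. A minimum of 10 UMIs gave 6 in B cells, 3 in CD4 T cells and 2 in plasma cells, and one of 200 gave 0 in B cells and 2 in border macrophages. The mean of per-cell CPM gave 4 in B cells and 2 in plasma cells. Without doublet removal oligodendrocytes had 1, with doubled gates border macrophages had 2, and with cells of several gates kept border macrophages had 3, dendritic cells 2 and plasma cells 2. Xist-positive cells gave 10 in CD8 T cells and 0 in oligodendrocytes, cells with Y-linked UMIs 8 in CD8 T cells, 3 in microglia and 1 in plasma cells, and microglia under the class II limit 2. The cause was not tested for any of these.

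Of the values of single called members, 280 stayed within their interval, 57 moved and 9 turned. Among Xist-positive cells, Hk3, Pkm and Ldhb turned in border macrophages (-0.32, -0.09 and -0.40) and Ldha in oligodendrocytes (-0.17). Among cells with Y-linked UMIs, Slc2a3 and Pfkp turned in microglia (0.04 and -0.04). Pfkp was also at -0.08 in class II-rich microglia, Pdk1 at 0.59 in CD8 T cells with a Pdcd1 UMI, from 30 and 2 UMIs, and thinned Ddit4 at -0.01 in border macrophages. The sexes were not run where a library had under 50 such cells: Xist-positive B, CD4 T, other T, dendritic and plasma cells, and B cells and border macrophages with Y-linked UMIs. Depth limits the low members most, and 196 of 288 pairs reached 50 UMIs.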

Other observations

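The genes of fructose 2,6-bisphosphate also differed in their mix between cell types. Pfkfb3 made up 95.5% (90.97 to 98.2) and 90.6% (80.7 to 96.5) of the UMIs of Pfkfb3 and Pfkfb4 in CD8 T cells and 77.3% and 77.1% in microglia, but 49.8% (44.8 to 54.7) and 67.3% (61.1 to 73.2) in oligodendrocytes. In dendritic cells it made up 90.3% (86.8 to 93.2) and 77.03% (69.4 to 83.5), intervals that do not overlap. The lactate exporter Slc16a3 made up 90.6% and 96% of the UMIs of Slc16a1 and Slc16a3 in dendritic cells, 87.7% and 79.2% in microglia and 74.4% and 57.1% in regulatory T cells, against 2.24% and 2.44% in oligodendrocytes.

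Vegfa was seen in 27.2% and 13% of NK cells and in 0.525% and 0.332% of CD8 T cells, at median depths of 3252 and 2844 UMIs and 3815 and 3199 UMIs respectively. Thinned to 1000 UMIs, 3 of 80 cells (3.75%, 0.780 to 10.6) and 7 of 99 cells (7.07%, 2.89 to 14.03) of NK cells had it, against 3 of 1510 cells (0.199%, 0.0410 to 0.580) and 0 of 600 cells (0%, 0 to 0.613) of CD8 T cells. NK cells were too few to be compared between the libraries.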
